A study of Mus musculus with 8 samples.

Results

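The genes described here are 10 members of the Notch pathway, namely the receptors Notch1, Notch2, Notch3 and Notch4, the ligands Dll1, Dll4, Jag1 and Jag2, and the target genes Hey1 and Hes1. They were chosen by name, and all 10 were found among 37046 features and all 10 passed the filter on low counts that left 15184 genes for testing. RNA of white adipose tissue was sequenced from wild-type female mice of the inbred strain C57BL/6J, in 4 libraries from mice given endostatin at 50 mg/kg into the tail vein and 4 from mice given phosphate-buffered saline (PBS, the control group) by the same route. Tissue was taken 2 h later, and food was withheld in between. Each group had 2 libraries in each of 2 labelled batches, and the age of the mice is not given in the sources used here. Endostatin is a fragment of collagen XVIII that restrains the growth of blood vessels, and the series asks how it alters gene expression in this tissue.

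Notch receptors sit in the cell membrane and bind Delta-like and Jagged ligands on a neighbouring cell. Binding lets proteases cut the receptor, and the freed intracellular part enters the nucleus, where it joins the DNA-binding protein RBPJ and coactivators of the MAML family to switch on genes such as those of the HES and HEY repressors. In growing vessels, DLL4 on the leading tip cell activates NOTCH1 on its neighbours and restrains their sprouting, while NOTCH3 is known from pericytes and vascular smooth muscle and NOTCH4 from endothelium.

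The sequence upstream of the start site was looked up for the 10 genes in a table of mouse promoters from RefSeq (build GRCm38.p6), where 8 had an entry and Hey1 and Hes1 did not. Only the 250 bases before each start were read. The core letters bound by RBPJ, TGGGAA or on the other strand TTCCCA, occurred in 0 of the 9 windows (Dll1 has 2 starts), against 21.6% of 32851 windows of the same length over all genes. The E-box letters CACGTG, which read the same on both strands, are bound by HEY and other basic helix-loop-helix proteins. They can share 2 letters with the RBPJ core where one follows the other. They occurred in 0 of the 9 windows, against 6.02% over all genes. Neither count says anything of sites outside these windows. The windows of 3 ligands are shown because Jag2 varied least of all 10 genes between libraries, while Jag1 and Dll4 were among the more variable ones, as described below. GC made up 87.2% of the Jag2 window, 57.2% of the Jag1 window and 65.6% of the Dll4 window, against a median of 52.4% over all genes. Whether GC goes with the spread was not tested. No letters are in capitals because neither motif was found.
Jag2, chr12:112929496-112929745, minus strand: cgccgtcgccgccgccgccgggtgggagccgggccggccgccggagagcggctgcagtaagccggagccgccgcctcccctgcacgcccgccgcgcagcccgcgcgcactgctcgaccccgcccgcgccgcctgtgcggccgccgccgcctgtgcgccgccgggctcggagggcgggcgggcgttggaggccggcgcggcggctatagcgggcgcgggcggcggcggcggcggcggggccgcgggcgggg
Jag1, chr2:137116521-137116770, minus strand: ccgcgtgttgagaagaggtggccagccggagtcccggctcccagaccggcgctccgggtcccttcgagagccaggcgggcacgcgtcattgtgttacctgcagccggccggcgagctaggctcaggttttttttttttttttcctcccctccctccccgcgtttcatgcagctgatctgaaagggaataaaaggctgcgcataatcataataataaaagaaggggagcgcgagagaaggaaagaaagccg
Dll4, chr2:119325534-119325783, plus strand: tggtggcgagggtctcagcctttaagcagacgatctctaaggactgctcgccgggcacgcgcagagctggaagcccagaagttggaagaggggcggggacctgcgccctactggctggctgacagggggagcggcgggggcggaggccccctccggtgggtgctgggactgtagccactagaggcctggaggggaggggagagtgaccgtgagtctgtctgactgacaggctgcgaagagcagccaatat

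The libraries held 15826783 to 23786594 estimated counts. Markers of adipocytes had the largest sum of the 12 marker lists in every library, at 38680 to 46960 TPM in the endostatin group and 26310 to 52340 TPM in the control group (TPM is a level per transcript length that sums alike over every library). Control 3 had the lowest of these sums. The labels call the fat depot epididymal although the mice are female. Oviduct and uterus markers had a sum of 384.9 TPM in endostatin 4 and of 531.9 TPM in control 3. In the other 6 libraries it was 15.8 to 43.5 TPM. Ltf alone held 298.3 TPM of the sum in endostatin 4. Other markers of the list went both ways there. Epcam (32.4 TPM) and Pax8 (12.8 TPM) were second only to control 3, and Ovgp1 (0.719 TPM) was at its lowest of 8 libraries. Skeletal muscle markers were highest in control 1 (192.6 TPM) and control 4 (384.0 TPM), with 33.5 to 105.1 TPM elsewhere. By log2 fold change between the groups, none past the threshold, 8 of 8 fibroblast markers (median 0.25), 6 of 6 mesothelial (0.29), 5 of 6 macrophage (0.34) and 7 of 8 hepatocyte markers (3.75) were positive and 6 of 6 skeletal muscle markers negative (-2.63), beside 46.6% positive over all genes. Fibroblast, mesothelial and macrophage markers were shifted upward within batch 2 (medians 0.52, 0.69 and 0.76). Within batch 1 they lay near 0 (0.02, -0.05 and -0.08). Hepatocyte markers (1.83, then 6.40) and skeletal muscle markers (-1.45, then -3.92) kept their direction from batch 1 to batch 2. The part of these cell types in the Notch values was not tested.

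All 10 Notch genes were expressed in every library, and the receptors Notch2 and Notch1 led. Notch2 averaged 67.6 ± 10.8 TPM and Notch1 65.1 ± 6.1 TPM (mean ± SD over all 8 libraries), and these receptors changed places between libraries, with Notch2 above Notch1 in 4 of 8. Jag1 followed at 33.9 ± 5.2 TPM, below Notch1 in 8 of 8 libraries and with a range that did not overlap it. Notch4 stood at 30.7 ± 5.6 TPM, Notch3 at 27.0 ± 5.0 TPM and Jag2 at 19.3 ± 3.5 TPM. Hes1 stood at 16.6 ± 8.1 TPM and Dll4 at 13.2 ± 2.9 TPM, and Dll1 (8.11 ± 1.60 TPM) and Hey1 (7.74 ± 2.44 TPM) were lowest. Apart from Notch1 and Jag1, every pair of neighbours in this order had overlapping ranges, although Dll4 lay above Dll1 in 8 of 8 libraries. The 4 receptors together summed to 198.3 ± 19.3 TPM in the endostatin group and 182.7 ± 10.9 TPM in the control group (SD, n = 4 each). The 4 ligands summed to 75.3 ± 5.7 TPM in the endostatin group and 73.7 ± 2.2 TPM in the control group.

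**Figure D1:**
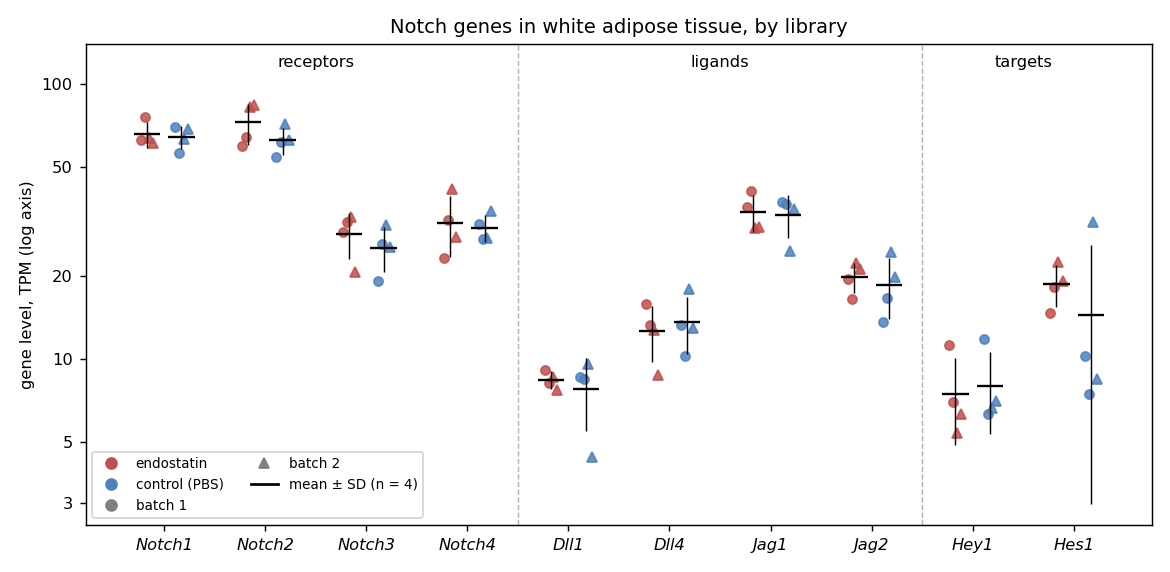
Level of each Notch gene in TPM on a log axis, one point per library, with the endostatin group left of the control group; circles are batch 1, triangles batch 2, and black lines give the mean and SD of 4 libraries. Notch1 and Notch2 lie at 54.3 to 83.7 TPM, above all other genes, and Hes1 in control 3 (31.6 TPM) stands apart from the other control libraries.

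Part of these levels came from transcripts annotated as non-coding. The authors' program divides reads among annotated transcripts, retained-intron entries included. Protein-coding transcripts held 97.9% of the TPM of Dll4 (mean of 8 libraries), 96.9% of that of Notch3 and 91.9% of that of Jag1. They held 56.2% for Jag2, 59.3% for Notch4 and 67.3% for Notch1. In estimated counts the coding share was at least 91.5% for every gene as a mean over libraries. By coding transcripts alone the order of levels was Notch2 (51.3 TPM), Notch1 (43.7 TPM), Jag1 (31.0 TPM), Notch3 (26.1 TPM), Notch4 (18.0 TPM), Dll4 (12.8 TPM), Hes1 (11.6 TPM), Jag2 (10.8 TPM), Hey1 (6.28 TPM) and Dll1 (6.10 TPM). Notch3 thus moved above Notch4, and Jag2 moved below Dll4 and Hes1. The retained-intron transcript Notch2-202 held 23.9 ± 7.6% of the Notch2 TPM in the endostatin group and 22.9 ± 4.2% in the control group. The retained-intron transcript Hes1-203 held 24.8 ± 18.6% of the Hes1 TPM in the endostatin group and 8.42 ± 11.1% in the control group, with a range of 0% to 45.1% over all libraries, and the difference between the group means was smaller than the SD of the endostatin group.

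**Figure D2:**
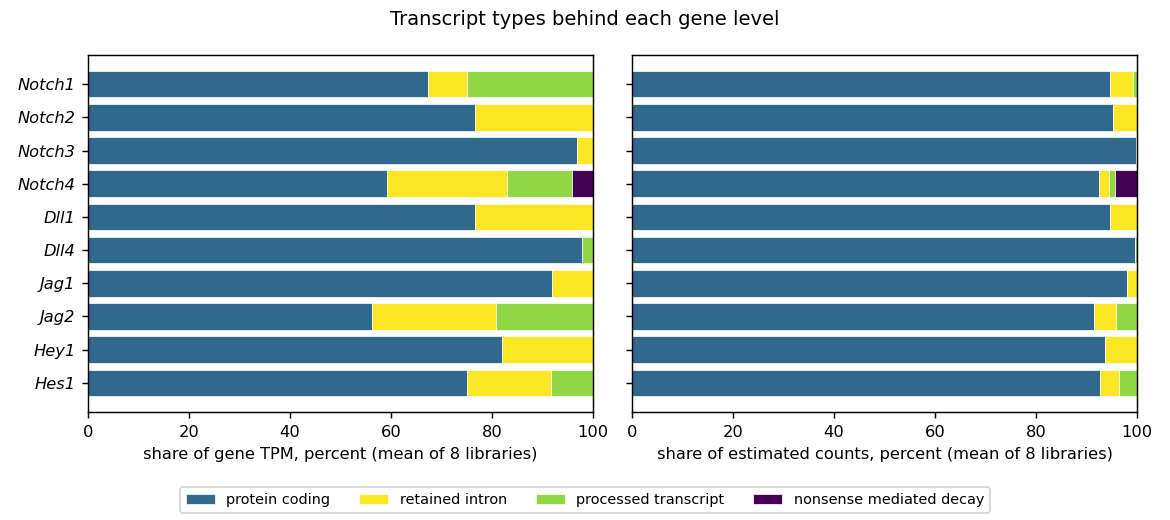
Share of each gene's level held by each annotated transcript type, as the mean of 8 libraries, in percent of TPM (left) and of estimated counts (right). Coding transcripts hold 56.2% to 97.9% of the TPM and 91.5% to 99.8% of the counts.

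Endostatin against control, the comparison the design sets, gave no call for any Notch gene. In edgeR's quasi-likelihood test with a term for batch, 0 of the 10 genes passed an adjusted p of 0.05, against 0% of the 15184 genes tested, and all 10 had an adjusted p of 1.00. Of the 10, 5 had a positive log2 fold change (endostatin minus control) and 5 a negative one, with a median of 0.04, beside 46.6% positive and a median of -0.01 over all genes. In all 10 genes the groups overlapped; over all genes, 0.942% had every endostatin library above every control library and 0.698% had every one below. The unadjusted p was under 0.05 for 0 of the 10 and for 485 genes (3.19%) in all. DESeq2 called 4 genes and limma-voom 0, and no Notch gene was among them; the 4, named after their values were seen, were Mup17, Trpc2 and Gm7694 with positive and Gm28438 with negative log2 fold changes. Values below are in CPM (estimated counts scaled to library size by TMM), which serve to compare libraries for 1 gene. Each log2 fold change is given with its SE, as endostatin minus control. In tissue RNA, fewer cells of a type and less RNA per cell cannot be told apart.

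Among the receptors, Notch2, which is widely expressed, had the largest log2 fold change. It stood at 323, 331, 372 and 369 CPM in endostatin 1 to 4, against 304, 336, 293 and 322 CPM in control 1 to 4. The 2 endostatin libraries of batch 2 were above every other library, and the groups overlapped in batch 1. Its log2 fold change was 0.15 ± 0.10, with a 95% interval from -0.08 to 0.39. Within batches it was 0.03 in batch 1 and 0.27 in batch 2. Without control 3 it was 0.09.

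Notch1, the receptor best known from sprouting vessels, stood at 255, 312, 254 and 232 CPM in endostatin 1 to 4, against 264, 264, 217 and 246 CPM in control 1 to 4. Endostatin 2 was the highest library and control 3 the lowest, and the others overlapped. Its log2 fold change was 0.09 ± 0.10, with an interval from -0.15 to 0.32. It was -0.02 when the effective transcript length was taken into account. Without single libraries it ran between 0.02 (without endostatin 2) and 0.14 (without endostatin 1), and it was 0.04 without control 3.

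Notch3, the receptor of mural cells, stood at 126, 140, 142 and 92.4 CPM in endostatin 1 to 4, against 98.6, 122, 118.0 and 125 CPM in control 1 to 4. Endostatin 4 was the lowest of all libraries, and the other 3 endostatin libraries were above every control library. For Notch3 the log2 fold change was 0.11 ± 0.15, and 0.25 without endostatin 4. That library also had a raised sum of oviduct and uterus markers, most of it from Ltf. It was 0.005 without endostatin 3, 0.05 without endostatin 2 and 0.02 without control 1, so its size rested on single libraries in both directions. In endostatin 4 the pericyte and smooth muscle markers went both ways. Their sum was 2471 TPM, and 893.4 to 1613 TPM in the other libraries, with Tagln, a smooth muscle actin-binding protein, at 783 CPM. Of the pericyte markers, Rgs5 (104 CPM) and Cspg4 (42.8 CPM) were at their lowest there and Pdgfrb (64.2 CPM) at its highest. Acta2, Myh11, Cnn1 and Des were at their highest there too. None of the 8 markers was at 0, and their part in the Notch3 value was not tested.

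Notch4, the endothelial receptor, stood at 68.2, 84.1, 82.8 and 61.2 CPM in endostatin 1 to 4, against 79.9, 63.5, 65.6 and 87.6 CPM in control 1 to 4. Each group held 2 lower libraries, at 61.2 to 68.2 CPM, and 2 higher ones, at 79.9 to 87.6 CPM, so the groups overlapped fully. The log2 fold change was -0.001 ± 0.151, with an interval from -0.35 to 0.35. Without control 4 it was 0.11 and without control 3 it was -0.08.

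Of the ligands, Dll4, which marks tip cells and arterial endothelium, stood at 33.4, 28.6, 26.5 and 17.6 CPM in endostatin 1 to 4, against 30.7, 22.8, 28.1 and 28.7 CPM in control 1 to 4. Endostatin 1 was the highest library and endostatin 4 the lowest, and the control libraries lay between them. For Dll4 the log2 fold change was -0.07 ± 0.19, with an interval from -0.51 to 0.36. It was -0.37 in batch 2 and 0.21 in batch 1, a difference of -0.58 ± 0.33 that did not pass the test of the treatment by batch interaction (edgeR adjusted p = 0.997). Without endostatin 4 the log2 fold change was 0.08. The sum of the endothelial markers was not lowest in endostatin 4. The 10 markers, none at 0, summed to 599.6, 647.5, 599.8 and 610.2 TPM in endostatin 1 to 4, against 505.5, 603.2, 629.7 and 556.9 TPM in control 1 to 4. Single markers in endostatin 4 went both ways. Cdh5 (169.0 CPM), Kdr (133 CPM), Egfl7 (35.1 CPM) and Erg (16.5 CPM) were at their lowest of 8 libraries there, and Pecam1 (163 CPM), Tek (67.9 CPM), Tie1 (67.6 CPM) and Cldn5 (53.5 CPM) at their highest. Their part in the Dll4 value was not tested.

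Jag1, a ligand of endothelium and mural cells that in mouse vessels can counter DLL4, stood at 105, 123, 88.1 and 87.0 CPM in endostatin 1 to 4, against 124, 116, 68.9 and 113 CPM in control 1 to 4. Control 3 was the lowest library. The 4 libraries of batch 1 were above 3 of the 4 libraries of batch 2, the exception being control 4. Its log2 fold change was -0.06 ± 0.15, with -0.20 without control 3 and 0.09 without control 4. Jag2 varied least of all 10 genes. It stood at 25.5, 27.9, 27.5 and 26.8 CPM in endostatin 1 to 4, against 26.7, 25.4, 29.4 and 27.7 CPM in control 1 to 4. All 8 libraries thus fell within 25.4 to 29.4 CPM, and the log2 fold change was -0.02 ± 0.08 with an interval from -0.22 to 0.18, the narrowest of the 10.

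Dll1, a ligand that keeps progenitor cells undifferentiated in many mouse tissues, stood at 14.4, 15.1, 14.1 and 11.8 CPM in endostatin 1 to 4, against 9.94, 16.2, 12.3 and 8.77 CPM in control 1 to 4. The endostatin libraries lay inside the range of the control libraries. For Dll1 the log2 fold change was 0.24 ± 0.19, with an interval from -0.20 to 0.67, and 0.18 and 0.30 in batch 1 and batch 2. It was 0.41 without control 2, 0.12 without control 1, 0.14 without control 4 and -0.03 without control 1 and control 4, the libraries with raised muscle markers.

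The 2 target genes differed from each other in which libraries stood out. Hes1, a repressor induced by Notch in many cell types, stood at 10.4, 9.08, 9.99 and 8.94 CPM in endostatin 1 to 4, against 6.61, 5.83, 15.8 and 6.41 CPM in control 1 to 4. All 4 endostatin libraries were above 3 of the 4 control libraries, and control 3 was above all. For Hes1 the log2 fold change was 0.21 ± 0.31, with an interval from -0.50 to 0.91. In batch 2, which holds control 3, it was -0.23 and in batch 1 it was 0.65, a difference of -0.87 ± 0.56 (edgeR interaction test, adjusted p = 0.997).

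The size of the Hes1 value changed with control 3 and also with the measure used. Without control 3 the log2 fold change was 0.60 ± 0.14 (edgeR adjusted p = 0.806). Without control 3 and endostatin 4 it was 0.64 ± 0.14 (edgeR adjusted p = 0.475), and neither passed the threshold. With control 3 kept, it was 0.47 with effective length offsets and 0.62 on log2(TPM + 0.1). Without control 1 and control 4 it was -0.06. Control 3 is the library with the highest sum of oviduct and uterus markers, given above. It also had the lowest sum of adipocyte markers, at 26310 TPM, against 38680 to 52340 TPM in the other libraries. Epithelial markers had a sum of 226.0 TPM in endostatin 4 and of 423.0 TPM in control 3, and of 30.8 to 54.1 TPM in the other 6 libraries. The part of these 3 marker lists in the Hes1 value was not tested.

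Hey1, a repressor downstream of Notch in endothelium, stood at 12.2, 8.90, 6.41 and 6.61 CPM in endostatin 1 to 4, against 14.7, 8.22, 7.02 and 7.13 CPM in control 1 to 4. The groups overlapped, and the 4 libraries of batch 1 were above the 4 of batch 2. Its log2 fold change was -0.12 ± 0.20, and it was -0.12 within batch 1 and -0.12 within batch 2. Without control 1, the highest library, it was 0.07.

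**Figure D3:**
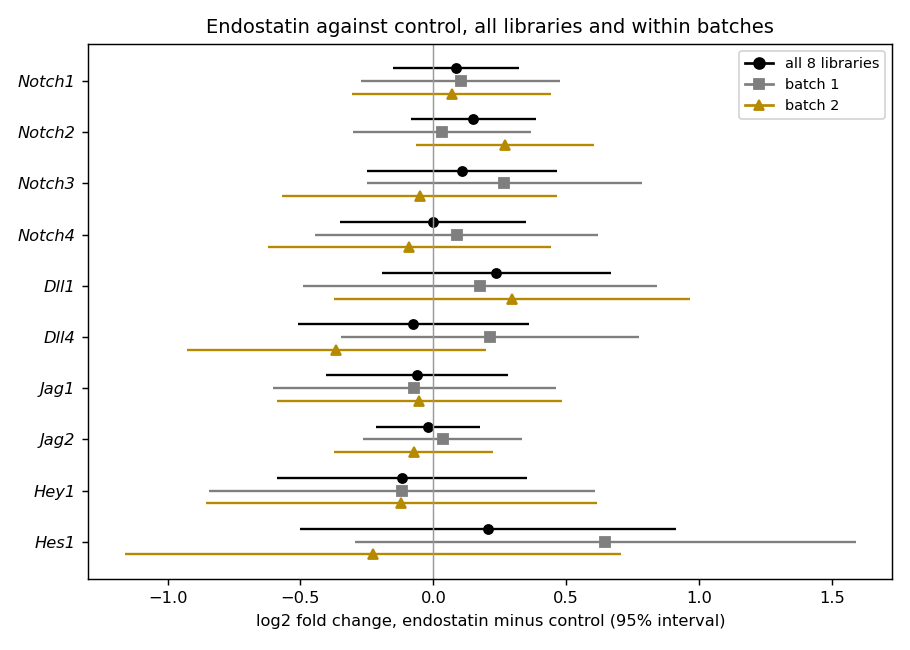
Log2 fold change of each Notch gene, endostatin minus control, with 95% intervals from edgeR, for all 8 libraries (black circles) and within batch 1 (grey squares) and batch 2 (yellow triangles). Every interval includes 0, and Jag2 has the narrowest (-0.22 to 0.18).

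The signs agreed between batches for 5 of the 10 genes (Notch1, Notch2, Dll1, Jag1 and Hey1), beside 47.7% of all genes tested. The median log2 fold change of the 10 was 0.10 in batch 1 and -0.06 in batch 2. No gene of the 10 passed the interaction test, against 0% of all genes. The interaction test called 0 genes in edgeR, with 527 (3.47%) at an unadjusted p under 0.05, and 28 in DESeq2 and 0 in limma-voom.

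Between batches, Hey1 had the largest log2 fold change of the 10. It stood at 6.41 to 7.13 CPM in the 4 libraries of batch 2 and 8.22 to 14.7 CPM in the 4 of batch 1, a log2 fold change of -0.69 ± 0.20 (batch 2 minus batch 1; unadjusted p = 0.00962, adjusted p = 0.482 in edgeR). Jag1 had a log2 fold change of -0.39 ± 0.15 (unadjusted p = 0.0307, adjusted p = 0.499 in edgeR). Notch1 had -0.21 ± 0.10, Dll1 -0.25 ± 0.19 and Dll4 -0.20 ± 0.19, and Hes1 had 0.39 ± 0.31, which was -0.01 without control 3. Notch2, Jag2, Notch3 and Notch4 lay between -0.02 and 0.08. None of the 10 passed, beside 6 genes (0.0395%) of all genes tested, and 2 of the 10 had an unadjusted p under 0.05, beside 9.96% of all genes. What the batch stands for is not given in the labels.

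**Figure D4:**
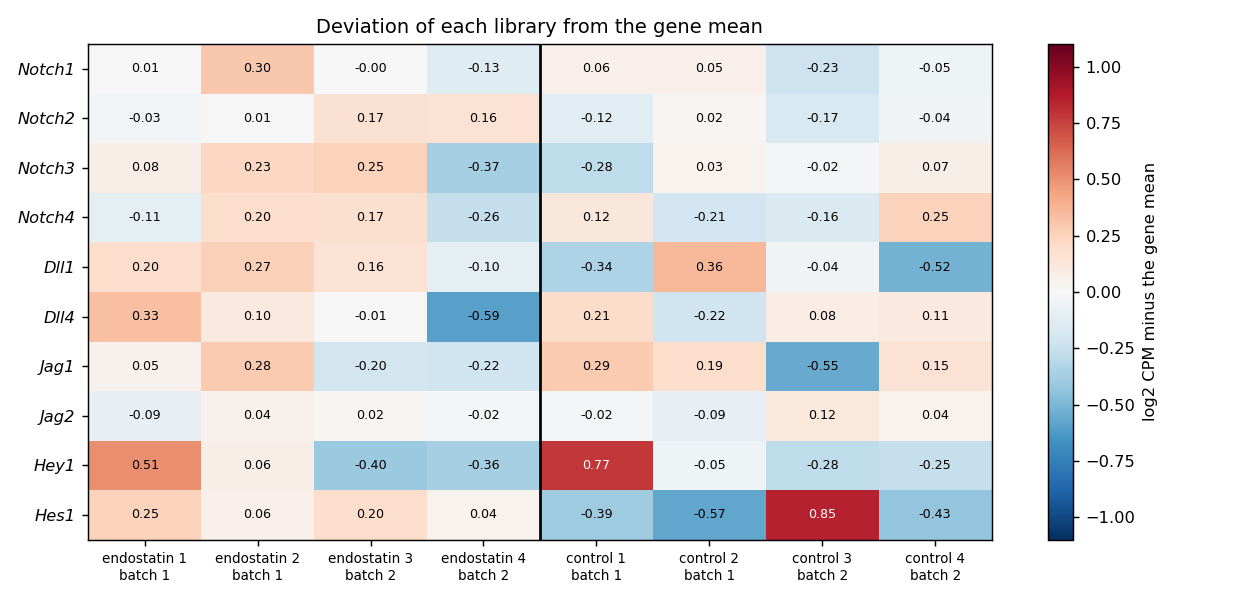
Deviation of each library from the gene's mean over 8 libraries, in log2 CPM, with the 4 endostatin libraries left of the 4 control libraries. Hes1 in control 3 (0.85) and Hey1 in control 1 (0.77) are the largest deviations, and Jag2 stays within 0.12 of its mean.

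The spread over libraries ordered the genes differently from their levels, although Dll1, Hey1 and Hes1, the genes lowest in CPM, varied most. The SD of log2 CPM over 8 libraries was 0.07 for Jag2, 0.12 for Notch2, 0.15 for Notch1, 0.21 for Notch4 and 0.22 for Notch3. It was 0.29 for Dll4, 0.30 for Jag1, 0.31 for Dll1, 0.43 for Hey1 and 0.46 for Hes1. Among the 45 pairs of these genes, the root mean square distance between library profiles, each centred on its gene mean, was smallest for Notch2 and Jag2 (0.15) and largest for Jag1 and Hes1 (0.68). The distance between the targets Hey1 and Hes1 was 0.66.

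Genes outside the family with the nearest profiles were sought among 9755 protein-coding genes averaging 10 CPM or more, by the same distance over the 8 libraries. They were Iffo1 (0.04) and Blzf1 (0.05) for Notch1, Snap23 (0.02) and Arhgef3 (0.04) for Notch2, Fam216a and Mtss1l (0.10 each) for Notch3, and Tomm40l and Il17rc (0.06 each) for Notch4. For the ligands they were Runx1 (0.13) and Zfp799 (0.14) for Dll1, Jazf1 (0.07) for Dll4, Pgrmc2 and N4bp2l1 (0.06 each) for Jag1, and Arid1b and Scap (0.03 each) for Jag2. The targets had the most distant neighbours, H1fx (0.18) and Clstn2 (0.19) for Hey1 and Smc2 and Hist2h3c2 (0.15 each) for Hes1. Genes that vary little lie close to one another by this measure whatever their function.

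Other genes of the pathway were listed by role, 68 in all, of which 61 passed the filter on low counts. None of the 61 passed edgeR's test in either direction, against 0% of all genes tested. Of the 61, 28 had positive and 33 negative log2 fold changes, with a median of -0.01, the same as over all genes, and 4 had an unadjusted p under 0.05, beside 3.19% of all genes tested. Those 4 were Mfap5, Kat2a, Tle1 and Hey2. The 7 genes below the filter were the ligands Dll3, Dlk2 and Dner and the targets Hes2, Hes3, Hes5 and Hes7. Hes3 had 0 counts in 8 of 8 libraries, which allows up to 3 counts, or 0.126 to 0.190 CPM, in each library; this floor covers counting error only.

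Upstream of ligand binding, the 5 glycosyltransferases that sugar-coat the receptor had 1 positive and 4 negative values (median -0.02). Lfng, a Fringe enzyme that tunes which ligand a receptor answers, stood at 33.1, 37.9, 41.5 and 34.7 CPM in endostatin 1 to 4, against 35.0, 32.0, 27.0 and 28.9 CPM in control 1 to 4. Its log2 fold change was 0.27 ± 0.12 (edgeR unadjusted p = 0.0520, adjusted p = 1.00), with 0.09 in batch 1 and 0.45 in batch 2. Its relative Rfng had -0.14 ± 0.13. Of 9 receptor proteases and their partners, 7 were positive, with a median of 0.09 and a range from -0.13 to 0.16. Furin, which cuts the receptor during its maturation, had 0.13 ± 0.09, and Psen2, a catalytic subunit of gamma-secretase, had -0.13 ± 0.15.

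Among 3 tested ligands outside the main family, Mfap5, a microfibril protein that binds Notch1, stood at 66.4 ± 12.7 CPM in the endostatin group and 50.0 ± 6.7 CPM in the control group (SD, n = 4 each). Its log2 fold change was 0.40 ± 0.16 (edgeR unadjusted p = 0.0383, adjusted p = 1.00), with -0.001 in batch 1 and 0.80 in batch 2. Mfap5 is also made by fibroblasts, whose marker list of 8, none at 0, summed to 2468 to 4273 TPM in the endostatin group and 2050 to 3154 TPM in the control group; their part in this value was not tested. Mfap2 had -0.05 ± 0.33. Of 13 genes of ligand and receptor ubiquitination and trafficking, 6 were positive and 7 negative (median -0.01). Dtx4, a Deltex ubiquitin ligase, had 0.35 ± 0.20, and Neurl1b, which promotes ligand endocytosis, had -0.23 ± 0.11.

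In the nucleus, the 9 activators had 4 positive and 5 negative values (median -0.003). Maml2, a coactivator, had 0.18 ± 0.09, and the histone acetyltransferase Kat2a had -0.28 ± 0.11 (edgeR unadjusted p = 0.0380, adjusted p = 1.00). Of 14 corepressors, 5 were positive and 9 negative (median -0.04). Tle1, a Groucho corepressor that HES proteins recruit, had the smallest p of the pathway. It stood at 50.8, 48.4, 57.5 and 56.0 CPM in endostatin 1 to 4, against 66.3, 55.7, 75.9 and 73.1 CPM in control 1 to 4. Endostatin 1 and endostatin 2 were below every control library, and endostatin 3 and endostatin 4 were above control 2 alone. The log2 fold change was -0.35 ± 0.08 (edgeR unadjusted p = 0.00272, adjusted p = 1.00), with -0.30 in batch 1 and -0.39 in batch 2. Its relative Tle4 had 0.25 ± 0.12.

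Of 8 further targets tested, 3 were positive and 5 negative (median -0.09). Hey2, a relative of Hey1 in arterial endothelium, stood at 1.27, 0.719, 0.534 and 0.596 CPM in endostatin 1 to 4, against 1.13, 1.40, 3.15 and 1.37 CPM in control 1 to 4. Control 3 was the highest library, and the other 3 control libraries overlapped endostatin 1. The log2 fold change was -1.15 ± 0.48 (edgeR unadjusted p = 0.0439, adjusted p = 1.00). It was -0.34 in batch 1 and -1.99 in batch 2, which holds control 3. Cdkn1a, a cell cycle inhibitor, had 0.43 ± 0.20, with -0.04 in batch 1 and 0.89 in batch 2.

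**Figure D5:**
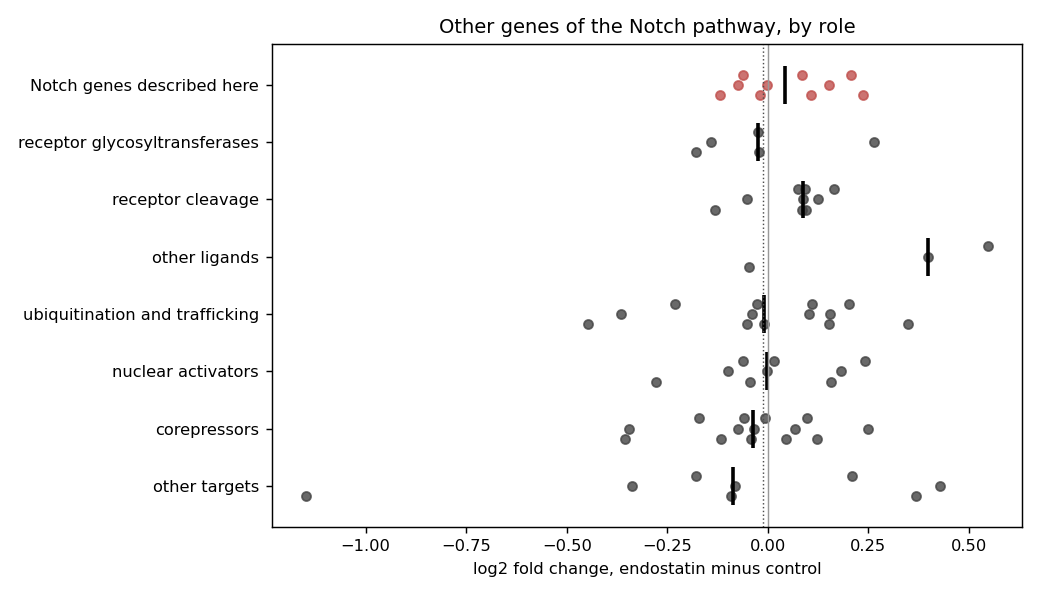
Log2 fold change, endostatin minus control, of the 10 Notch genes (red, top row) and of 61 other pathway genes by role (grey), with a black bar at each list's median and a dotted line at the median of all genes (-0.01). No point passed the test, and Hey2 (-1.15), a gene near 1 CPM, lies farthest from 0.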

How the data were processed

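The labels' protocols describe ribosomal depletion of total RNA and strand-specific dUTP libraries. The deposited files hold estimated counts and TPM per transcript, with effective lengths. The submitters' processing notes name Salmon and GRCm39; the Salmon version and index are not stated in the sources used here. Reads that fit several transcripts are divided among them by Salmon. Of 115620 transcripts, 113710 (98.35%) matched GENCODE M21 without version suffix, used for names and types only; Tle5 was matched through an older symbol in RefSeq.

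Estimated counts were summed per gene, rounded, filtered (filterByExpr), scaled (TMM) and tested with edgeR 4.0.16 in R 4.3.3 by quasi-likelihood, two-sided, on batch plus treatment. P-values were adjusted by Benjamini-Hochberg over all 15184 genes (threshold 0.05). Within-batch values came from adding the interaction. Alternatives used DESeq2 1.42.0 and limma 3.58.1.

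The Notch genes, gene lists and tests were chosen with earlier results of these data known. Named were all 10 Notch genes, any gene past the threshold in the treatment comparison, the gene of smallest p per direction and pathway list with at least 1 CPM, and the 2 nearest profiles per Notch gene, of which 1 is not reported here; further genes were named after their values were seen. The series text speaks of 4 mice, not clearly per group, and no label ties a library to an animal, so p-values cover the spread between samples, possibly technical. Endostatin 4 carries the read file stub of endostatin 3 in its description; their counts differ, and the labels were kept.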

Additional observations from a re-analysis of the deposited data

Results flagged for a closer look

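Of 20 values tested (10 Notch genes in 2 groups of 4 libraries), 2 had a library far from the other 3 of its group. Chance alone would flag about 1 in 20 such groups if the 4 values were normal and of 1 population. Each group here spans 2 batches, so this rate need not hold. Hes1 in control 3 stood at 15.8 CPM, against 5.83 to 6.61 CPM in the other control libraries. Hey1 in control 1 stood at 14.7 CPM, against 7.02 to 8.22 CPM in the other control libraries.

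The same measure picked 6 of 24 marker sums, all in control 3 or endostatin 4. Oviduct and uterus markers and epithelial markers stood apart in both, arterial endothelial markers in control 3 (404.3 TPM, against 84.8 to 112.3 TPM in the other control libraries) and pericyte and smooth muscle markers in endostatin 4 (2471 TPM, against 972 to 1178 TPM in the other endostatin libraries). Of the 7 arterial markers, Sox17 stood at 162.5 CPM in control 3, against 21.9 to 36.9 CPM in the other 7 libraries, and Mecom at 112.8 CPM, against 9.88 to 30.8 CPM. Gja5 (14.3 CPM) and Gja4 (8.96 CPM) in control 3 were inside the range of the other libraries.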

How the results depend on the processing

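No Notch gene passed the threshold in any of 20 alternatives for treatment or 18 for batch. The number of genes called for treatment was 0 except with DESeq2 (4), for the interaction 0 except with DESeq2 (28) and limma on log2(TPM + 0.1) (1). The number called for batch was 6, against 171 with DESeq2, 10 with limma-voom, 11 without a low-count filter, 3 with protein-coding genes only, 10 with limma on log2(TPM + 0.1), 27 without control 3 and endostatin 4, 0 without control 1 and control 4, and 0 to 18 when libraries were left out one at a time. The cause was not tested. Deviations of same-numbered libraries from their group means correlated at 0.24, 0.16, -0.08 and -0.34, and only replicate 2 had its best match in its own number. Deviations from group and batch means correlated at 0.03 for replicates 1 and 2 and at -0.38 for replicates 3 and 4. Each batch held only 2 libraries per group, so these correlations can neither show nor exclude a pairing by replicate number. With a replicate block 0 genes were called for treatment, with 307 at an unadjusted p under 0.05.

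Treatment values that turned their sign were those of Notch1 (-0.023) and Jag2 (0.073) with effective length offsets; Notch4 (0.0017) without a low-count filter; Notch4 (0.028), Jag1 (0.035) and Jag2 (0.11) on log2(TPM + 0.1); Notch4 (0.027), Dll4 (0.10) and Jag2 (0.015) without control 3 and endostatin 4; and Notch4 (0.20), Dll1 (-0.028), Dll4 (0.032), Jag1 (0.16), Hey1 (0.12) and Hes1 (-0.064) without control 1 and control 4. Batch values that turned were those of Notch3 on log2(TPM + 0.1) (0.053) and without control 3 and endostatin 4 (0.15), and of Notch4 without control 1 and control 4 (-0.042). With single libraries left out, the treatment value of Notch4 ran from -0.083 to 0.11, of Dll4 from -0.22 to 0.085, of Jag1 from -0.20 to 0.092 and of Hey1 from -0.27 to 0.069, and the batch value of Notch3 from -0.12 to 0.12, of Notch4 from -0.10 to 0.11 and of Hes1 from -0.0087 to 0.53. The treatment values that kept their sign with every single library left out ran from 0.022 to 0.139 for Notch1, 0.087 to 0.20 for Notch2, 0.0045 to 0.25 for Notch3, 0.12 to 0.41 for Dll1, -0.058 to -0.0041 for Jag2 and 0.061 to 0.60 for Hes1. The number of libraries limits the precision to the intervals given.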

Other observations

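Control 3 was the highest of the 8 libraries in 22 of the 61 pathway genes (36.1%), beside 24.6% of all genes tested, and endostatin 4 in 9 (14.8%), beside 17.5%. Among them, Efnb2, a ligand of Eph receptors that marks arteries and is a Notch target, stood at 34.7, 24.8, 24.7 and 51.2 CPM in endostatin 1 to 4, against 32.7, 26.8, 100.4 and 20.5 CPM in control 1 to 4. Dtx1, a Deltex ubiquitin ligase, stood at 3.21, 0.135, 0.107 and 8.29 CPM in endostatin 1 to 4, against 1.25, 3.03, 9.79 and 1.15 CPM in control 1 to 4. Both genes, chosen after their values were seen, were highest in control 3 and next highest in endostatin 4. Mfng, a Fringe enzyme, was lowest in control 3, at 66.3 CPM, against 110.9 to 191.0 CPM in the other 7 libraries. Nrarp, a feedback inhibitor induced by Notch, stood at 14.3, 12.3, 16.9 and 10.3 CPM in endostatin 1 to 4, against 9.82, 10.4, 12.3 and 9.10 CPM in control 1 to 4, a log2 fold change of 0.37 ± 0.18 that did not pass the test (edgeR unadjusted p = 0.0811, adjusted p = 1.00).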
